A study of Mus musculus with 3 samples.

Results

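Malat1 and Neat1 are long noncoding RNAs that stay in the nucleus. They were selected for the early fall of the Malat1 signal, so their levels are given as a description and no value below tests them. Taken were all probe sets, the array's units of measurement, annotated with 1 gene symbol that is Malat1 or Neat1. This gave 2 of 12393 genes and 6 of 20380 such probe sets, of which 5 were for Malat1 and 1 for Neat1.

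The samples were 3 cultures of C57/BL6 mouse bone marrow, each read on 1 Affymetrix array. In every culture human M-CSF (50 ng/ml), a growth factor of the macrophage lineage, had been present for 3 days, which gave macrophages. Human RANKL (150 ng/ml), the cytokine that makes osteoclasts, followed for 0, 24 or 72 h. The labels call these stages precursor, differentiating precursor and osteoclast. The culture at 0 h is the only reference. Since the later cultures had both RANKL and more hours in the dish, these cannot be told apart. The animals and the purity of the cultures are not described in the sources used here. There were no replicates, and therefore no test is given.

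Malat1 is an abundant RNA of nuclear speckles, the bodies where splicing factors gather. Neat1 is the scaffold of paraspeckles, bodies that form on it as it is made and that hold RNA-binding proteins such as Sfpq and Nono. The genes lie side by side. Malat1 and the long form of Neat1 are cut at a tRNA-like fold by RNase P, which leaves a 3′ end without a usual poly(A) tail, and RNase Z trims the small RNA that is released, called mascRNA in the case of Malat1. Neat1 also has a short form that ends in poly(A), and the value of the probe set is not split by form. The standard Affymetrix labelling named in the labels primes on poly(A).

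The start of Malat1 is shown because its signal is the one on which the selection turned. The window covers 250 bases before and 50 bases after the start given by RefSeq on GRCm38.p6, chr19:5802623-5802922, minus strand, and capitals mark the motif match that was found in it.
Malat1 promoter window: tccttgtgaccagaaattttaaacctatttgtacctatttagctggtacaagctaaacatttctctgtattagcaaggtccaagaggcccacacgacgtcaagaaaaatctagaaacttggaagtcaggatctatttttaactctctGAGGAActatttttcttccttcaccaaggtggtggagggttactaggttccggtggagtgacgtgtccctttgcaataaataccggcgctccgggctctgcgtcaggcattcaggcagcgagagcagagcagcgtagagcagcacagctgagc
Letters of 5 motifs of factors at work in macrophages and osteoclasts were searched on both strands. The PU.1 letters GAGGAA occurred 1 time, 103 bases before the start, and 28.3% of the 32851 windows of the same length hold them. The AP-1 letters TGANTCA (in 7.81% of windows), the NFAT core GGAAA (61.3%), the E-box CACGTG (7.15%) and the M-box CATGTG (14.2%) were not in this window. GAGGAA and GGAAA can overlap in other windows. The G and C content of the Malat1 window was 47.0%, against a median of 52.7% over all windows. These matches describe letters only. For Neat1, no window was matched.

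All signals below are scaled, meaning that the log2 values of each array were centred on the median of its gene probe sets. Before this step, the median deposited signals of the arrays were 36.7, 60.9 and 62.7 in order of time. Values under a floor of 29.6 signal units, which is the 40th percentile over the gene probe sets of the arrays together, were set to it before differences were taken. The error given is technical, the SD of the difference between 2 probe sets of a gene divided by the square root of 2. In log2 units it was 0.41 at 24 h and 0.49 at 72 h, each against 0 h, and 0.36 between 24 and 72 h. Variation between cultures is not part of it. An error in the scaling between arrays is not part of it either, since it shifts both probe sets alike.

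Malat1 was high in the macrophages and low at both times with RANKL by 3 of its 5 probe sets, while of the other 2, 1 stayed within 2-fold and 1 was under the floor at 24 h and above its 0 h level at 72 h. Its highest-signal probe set, 1438403_s_at, read 1129, 67.3 and 75.8 at 0, 24 and 72 h. The 0 h array stands alone as high, and the later arrays lie close to each other. The log2 difference was -4.07 at 24 h, a 16.8-fold lower signal, and -3.90 at 72 h, 14.9-fold lower. Between 24 and 72 h it was 0.17, less than the technical error. In rank within its array, a measure that needs no scaling between arrays, this probe set went from percentile 95.2 at 0 h to 54.1 at 24 h. Among 8439 measured genes, those above the floor on at least 1 array of the comparison, 6 were further down at 24 h, and among 8558 at 72 h 26 were.

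The pair of probe sets designed from 1 source sequence gave the same course with smaller steps. Probe set 1418188_a_at read 245 at 0 h, 35.3 at 24 h and 33.1 at 72 h. Probe set 1418189_s_at read 329, 51.4 and 57.3 at the same times. Both were high at 0 h and low afterwards, 1418188_a_at just above the floor. They were 6.95-fold and 6.40-fold lower at 24 h, and 7.40-fold and 5.74-fold lower at 72 h.

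The last pair of Malat1 probe sets, designed from another source sequence, started from dimmer signals and took other courses. Probe set 1452378_at read 79.3 at 0 h, 43.6 at 24 h and 57.6 at 72 h, so it was lowest at 24 h but stayed within 2-fold. Its log2 difference of -0.86 at 24 h and -0.46 at 72 h compares with technical errors of 0.41 and 0.49. Probe set 1427285_s_at read 40 at 0 h, 9.08 at 24 h, under the floor, and 68.1 at 72 h. It was at least 1.35-fold lower at 24 h, and 4.40-fold with no floor, and it was 1.71-fold higher at 72 h than at 0 h, with at least a 2.31-fold increase between 24 and 72 h.

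The selection had named agreement among the Malat1 probe sets, but they differed in size at 24 h and in direction at 72 h. At 24 h the 4 probe sets above the floor on both arrays had log2 differences from -4.07 to -0.86, a range of 3.20. Among 921 genes with 3 or more such probe sets the median range was 0.71, and 1 gene had a wider one. At 72 h, with all 5 probe sets, the Malat1 range was 4.67, against a median of 0.84, and 0 of 898 genes had a wider one. The suffix _s_at, carried by 3 of the 5, marks probe sets whose probes match more than 1 transcript, and where along Malat1 each probe set lies was not determined here. With the mean of the 5 probe sets in place of the highest one, the log2 difference of Malat1 was -2.17 at 24 h and -1.80 at 72 h.

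**Figure D1:**
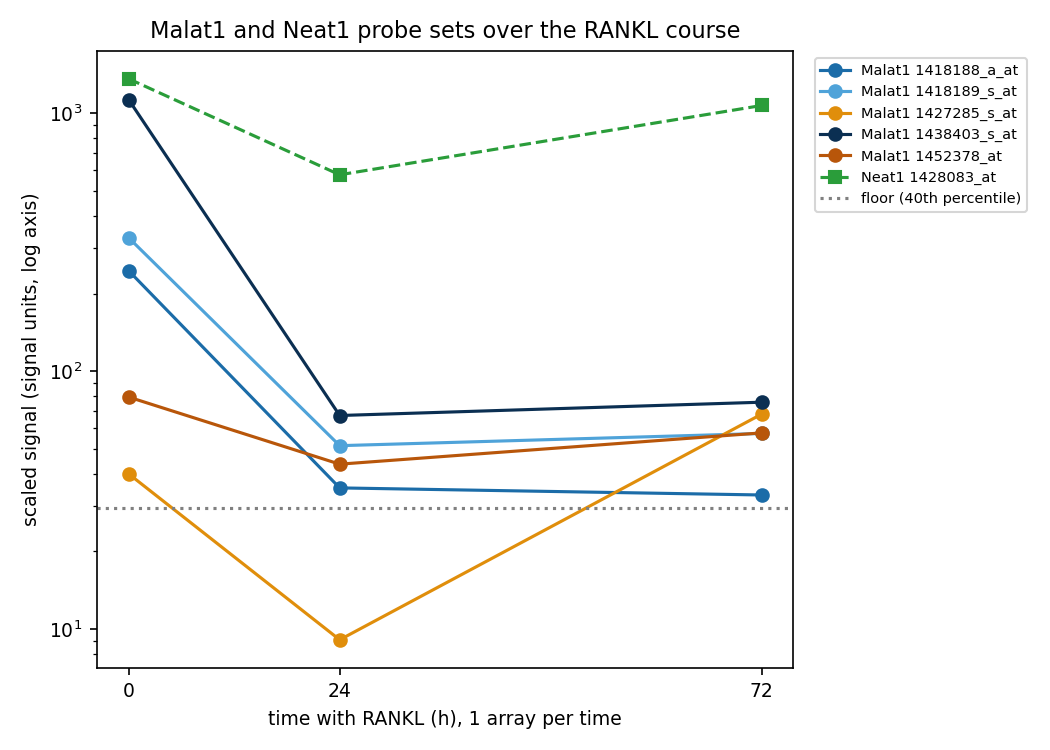
Scaled signal (log axis) of the 5 Malat1 probe sets (circles, solid lines) and the Neat1 probe set (squares, dashed line) against hours with RANKL, 1 array per point, with the floor of 29.6 as a dotted line. The blue Malat1 lines drop between 0 and 24 h and stay low. The orange Malat1 lines are also lowest at 24 h and are higher again at 72 h. Neat1, on this centred scale, dips at 24 h from 1360 to 577 and is back at 1072 by 72 h.

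On the centred scale Neat1 dipped at 24 h and was near its starting level at 72 h. Its probe set, 1428083_at, read 1360 at 0 h, 577 at 24 h and 1072 at 72 h, so the 24 h array is the low one. The log2 difference was -1.24 at 24 h, a 2.36-fold lower signal, which is more than the technical error. At 72 h it was -0.34, within the technical error, and from 24 to 72 h the signal was 1.86-fold higher, short of the 2-fold mark used here. In array rank Neat1 stood at percentile 96.3 at 0 h and 88.5 at 24 h. At 24 h 554 measured genes were further down than Neat1, against 6 for Malat1.

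By the 2-fold rule both RNAs were lower at 24 h, where 9.22% of measured genes were. At 72 h Malat1 was and Neat1 was not, where 12.8% were. In the step from 24 to 72 h neither passed, where 6.92% of genes were higher and 10% lower. In either direction, 22.4%, 25.3% and 16.9% of measured genes passed in these comparisons in turn. The log2 difference of Malat1 minus that of Neat1 was -2.83 at 24 h and -3.55 at 72 h. The size of this contrast rests on the Malat1 probe set with the highest signal. At 24 h 1418188_a_at (-2.80) and 1418189_s_at (-2.68) were also further down than Neat1 (-1.24). Probe set 1452378_at gave a smaller difference (-0.86) than Neat1 did, and 1427285_s_at, under the floor at 24 h, gave only a bound (-0.43).

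The choice of scale decides the Neat1 result and not the direction of the 3 Malat1 probe sets. On the deposited scale, without centring, Neat1 was -0.51 at 24 h, within 2-fold, and 0.43 at 72 h. Scaled to 24 control probe sets for the bacterial genes dap, lys, phe and thr, it was 0.32 at 24 h, above its 0 h level. The sources used here do not say whether such control RNAs were added. Malat1 by 1438403_s_at was -3.34 at 24 h on the deposited scale and -2.51 with the bacterial controls. After quantile normalization Neat1 was -1.51 and Malat1 -4.24 at 24 h. Scaled to the 18 hybridization control probe sets, Neat1 was -1.15 and Malat1 -3.98 at 24 h.

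**Figure D2:**
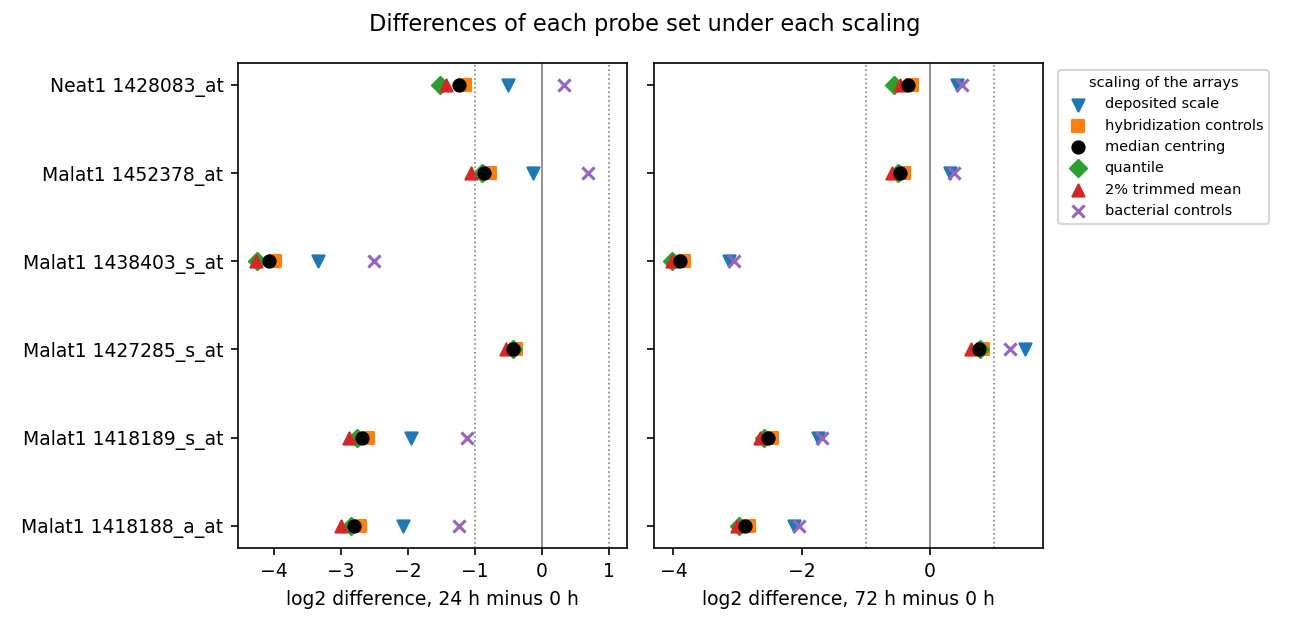
Log2 difference from 0 h (x axis) of each Malat1 and Neat1 probe set (rows) at 24 h (left) and 72 h (right) under 6 ways of scaling the arrays, with dotted lines at 2-fold. At 24 h the probe sets 1438403_s_at, 1418189_s_at and 1418188_a_at lie beyond 2-fold lower under all 6, while Neat1 ranges from -1.51 to 0.32; where both arrays were under the floor no point is drawn.

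The genes whose course was most like that of Malat1 were chosen by the distance between pairs of log2 differences (24 h and 72 h, each against 0 h) over 7897 genes and 3 arrays. Nearest were Rnase4, a secreted ribonuclease (distance 0.31), Hp, the hemoglobin-binding plasma protein haptoglobin (0.36), and Cyp27a1, a sterol hydroxylase (0.47). They were followed by Igf1, a growth factor (0.54), Cd93, a membrane glycoprotein of myeloid and endothelial cells (0.62), and Fcgr1, the high-affinity IgG receptor (0.63). Rnase4 read 1506, 85.8 and 124 in order of time. Cyp27a1 read 32.2 at 24 h and 30.5 at 72 h, just above the floor. The other probe set of Cd93 was at -1.30 at both times, a bound set by the floor. Hp was under the floor at 72 h with a signal of 3.42, so its difference there is a bound and its distance depends on the floor. For Neat1 the nearest were Serp1, a protein of the endoplasmic reticulum membrane (0.07), the IgG receptor Fcgr4 (0.08), the membrane protein Tmem268 (0.11), the cytokine receptor chain Il10rb (0.12), the myosin Myo15 (0.13) and the lysosomal protein Pld3 (0.13). Serp1 read 1830, 805 and 1489, while its other probe set was at -0.51 at 24 h and 0.58 at 72 h. Fcgr4 and Myo15 were under the floor at 24 h, so their distances depend on it too. Likeness over 3 arrays is a description of these arrays only.

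**Figure D3:**
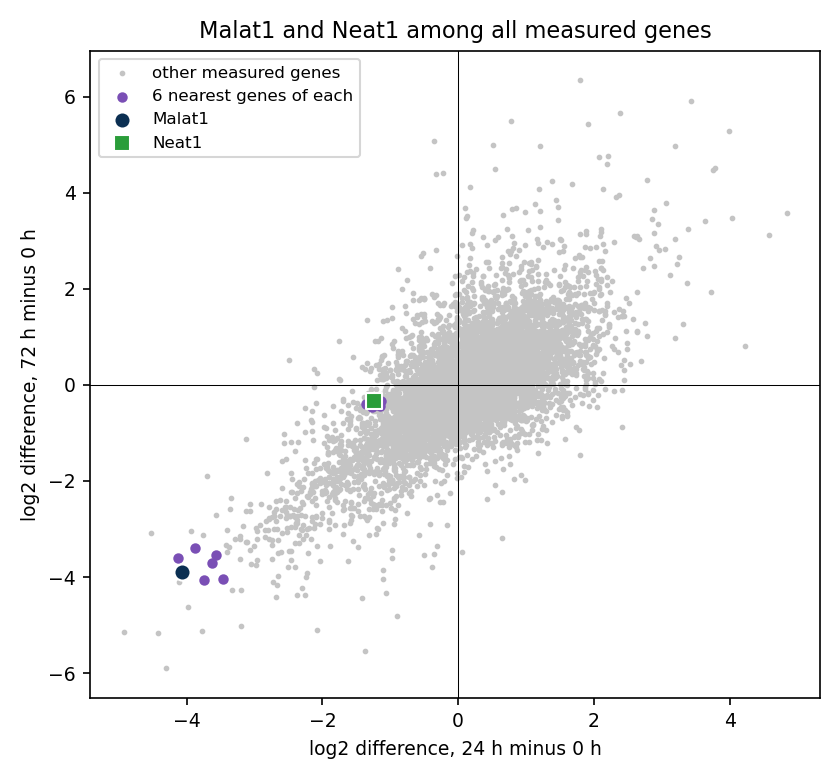
Log2 difference at 24 h (x axis) and at 72 h (y axis), both against 0 h, for the genes measured in both comparisons (grey), with Malat1 (circle), Neat1 (square) and the 6 nearest genes of each (purple). Malat1 lies at -4.07 and -3.90 near the lower left edge, and Neat1 at -1.24 and -0.34.

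On the centred scale the median of the paraspeckle proteins was above 0 at 24 h, where Neat1 was lower. With the bacterial controls both the median and Neat1 lay above 0. Of 17 measured proteins of the list, 4 were 2-fold higher and 0 lower at 24 h, where 13.2% and 9.22% of all genes were. Their median log2 difference was 0.58, against 0.12 over all genes, and it was above 0 under each alternative tried. Sfpq, which binds Neat1 with Nono, read 199 at 0 h, 526 at 24 h and 268 at 72 h, highest at 24 h by this probe set. Tardbp, the RNA-binding protein TDP-43, read 474, 1385 and 512. Other probe sets of both genes disagreed, with log2 differences at 24 h from -0.98 to 1.83 over 5 for Sfpq and from -1.06 to 1.55 over 4 for Tardbp. The 3 members with the highest signals stayed within 2-fold at 24 h by the probe sets that stood for them. Their log2 differences were -0.07 for Nono, 0.21 for Hnrnpk and 0.58 for Matr3. Another probe set of Nono was at -1.16 and another of Matr3 at 1.05. From 24 to 72 h, 7 of 17 were lower and 0 higher, beside 10% and 6.92% of all genes. The median of the 17 was -0.92, against -0.14 over all genes. Rbm14, needed for paraspeckle assembly, was at -1.43 and Rbmx, a splicing regulator, at -1.41 in that step. Over the 4 probe sets of Rbmx it ran from -1.41 to 0.35. Against 0 h, 0 of 17 passed 2-fold at 72 h in either direction, beside 25.3% of all genes. The median there was -0.32 and was above 0 on the deposited scale and with the bacterial controls.

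Proteins of nuclear speckles, where Malat1 resides, were mostly within 2-fold at 24 h. Of 24 measured, 3 were higher and 0 lower, where 13.2% and 9.22% of all genes were. Their median was 0.20, which was near 0 after trimmed mean or quantile scaling. At 72 h against 0 h 1 was higher and 4 lower, where 12.5% and 12.8% of all genes were. The median of the list there was -0.47, and it was above 0 on the deposited scale and with the bacterial controls. Son, a large scaffold of the speckle, read 1086, 743 and 432, lower at each later time, while its 6 probe sets ran from -1.33 to 0.51 at 72 h. Srsf10, a splicing factor, read 88.6, 272 and 223, the member that was higher at 72 h. Its 4 probe sets ran from -0.07 to 1.33 there. In the last step 3 were lower, beside 10% of all genes, among them Srsf1 at -1.48 and the export helicase Ddx39b at -1.45. The 6 probe sets of Srsf1 ran from -1.59 to -0.05 there. Srsf5 and Srsf2, also among the highest signals of the list, stayed within 2-fold in each comparison.

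Several genes for cutting and decay of nuclear RNA were higher at 24 h, where 13.2% of all genes were and the median over all genes was 0.12. Of 8 measured genes of RNase P and RNase Z, the tRNA-end enzymes, 5 were higher and 0 lower at 24 h, with a median of 1.29 that was above 0 under each alternative tried. The shared RNase P and MRP subunits Pop7, Pop4 and Pop5 were at 1.76, 1.51 and 1.48 and Rpp14 at 1.45. Elac2, the RNase Z itself, stayed within 2-fold, reading 99.4, 168 and 100.3, and the subunit Rpp30 was at 0.81. At 72 h 3 of 8 were 2-fold higher than at 0 h and 0 lower, beside 12.5% and 12.8% of all genes. Of 17 genes of the nuclear exosome and its helpers, 4 were higher and 0 lower at 24 h, with a median of 0.73. Dis3, a catalytic subunit of the exosome, read 73.4, 409 and 159 and had the largest difference, 2.48. The core subunits Exosc2, Exosc7 and Exosc5 were at 1.56, 1.45 and 1.13, while Pabpn1, the nuclear poly(A)-binding protein, was at 0.07, Rbm7 at 0.02 and C1d at 0.73. At 72 h against 0 h 1 of the 17, Dis3 at 1.12, was still 2-fold higher, beside 12.5% of all genes. From 24 to 72 h 2 of the 17 were lower, beside 10% of all genes. Genes that write, read or erase RNA methylation, a mark that Malat1 carries, had 1 of 11 higher at 24 h. That is below the 13.2% of all genes, and the gene was the writer subunit Wtap at 1.08. The other probe set of Wtap was at 0.01. The nuclear reader Ythdc1 read 322, 267 and 115. It was the 1 member lower at 72 h against either earlier time, beside 12.8% and 10% of all genes. Hnrnpc and Hnrnpa2b1, with the highest signals of that list, were at 0.67 and 0.51 at 24 h.

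At 24 h 0 of 11 other measured long noncoding RNAs were 2-fold lower, where 9.22% of all genes were. With 11 genes a count of 0 lies near that share. Of 52 listed, 19 had a probe set and 11 were above the floor in the comparisons. At 24 h 3 of these were higher, beside 13.2% of all genes, and 0 lower, with a median of 0.37. Snhg1 and Snhg5, hosts of small nucleolar RNAs, read 165 and 135 at 0 h, 686 and 479 at 24 h, and 313 and 183 at 72 h. Both were highest at 24 h, and the third was Oip5os1, which read 56.2, 113 and 76.7. At 72 h against 0 h 0 were higher and 1 lower, beside 12.5% and 12.8% of all genes. The lower one was Dleu2, the host of a microRNA cluster, which read 130, 102 and 32.6. From 24 to 72 h 5 were lower, beside 10% of all genes, Dleu2 at -1.65, Snhg5 at -1.39, Snhg1 at -1.13, Snhg8 at -1.11 and Gas5 at -1.03. Norad and Tug1, which with Gas5 had the highest signals, stayed within 2-fold in each comparison by the probe sets that stood for them. At 72 h against 0 h the 3 probe sets of Norad ran from -0.24 to 1.82 and the 3 of Tug1 from -0.80 to 1.49. The 5 probe sets of Snhg1 ran from -0.93 to 0.92 there, and from 1.15 to 2.25 at 24 h.

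At 24 h the chromosomal neighbours of the pair passed 2-fold about as often as genes in general. Of the 20 nearest measured genes, 10 on each side in the RefSeq gene order, 3 were higher and 2 lower at 24 h, beside 13.2% and 9.22% of all genes, with a median of -0.12 that was above 0 on the deposited scale and with the bacterial controls. Next to Neat1, the FERM-domain gene Frmd8 was at -0.07, and beyond it Slc25a45, a mitochondrial carrier, read 486, 209 and 249, or -1.22 at 24 h. The protease gene Capn1 was at -1.08, and its other probe set at -0.23. Next to Malat1, Ltbp3, which binds latent TGF-beta, read 94.2, 103 and 478, at 0.13 at 24 h and 2.34 at 72 h. The higher neighbours at 24 h were Znrd2 at 1.78, the polymerase alpha subunit gene Pola2 at 1.16 and Rnaseh2c, for a subunit of RNase H2, at 1.01. At 72 h against 0 h 1 was higher, Ltbp3, and 1 lower, Capn1, beside 12.5% and 12.8% of all genes. Capn1 was at -1.79, and its other probe set at 0.03. In the last step 1 was higher, Ltbp3, and 3 lower, Pola2, Rnaseh2c and Znrd2, beside 6.92% and 10% of all genes. The neighbours with the highest signals, Cfl1, Fau and Rela, stayed within 2-fold in each comparison. Mascrna, within Malat1, had no value.

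**Figure D4:**
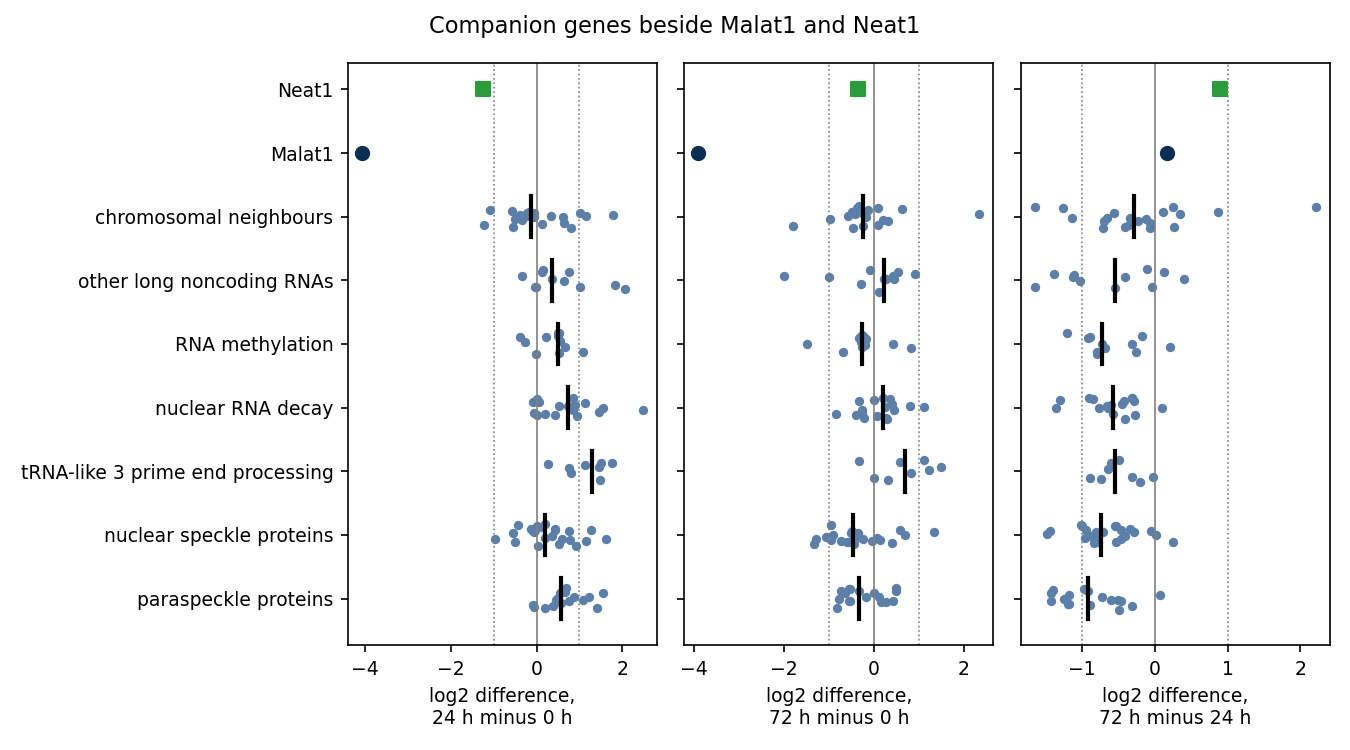
Log2 differences of the measured members of 7 companion lists (points, with a black bar at the median), with Malat1 and Neat1 in rows of their own, for 24 h against 0 h, 72 h against 0 h and 72 h against 24 h. The dotted lines mark 2-fold; Malat1 at -4.07 and -3.90 lies below every companion gene in both comparisons against 0 h.

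Summed marker signals of several cell types differed between the arrays as well. Of 17 macrophage markers 12 were lower at 24 h and 0 higher, beside 9.22% and 13.2% of all genes. The summed scaled signal of the 17 went from 62217 at 0 h to 33304 at 24 h and 33610 at 72 h. In order of time 17, 16 and 16 were above the floor. The sum over 7 megakaryocyte and platelet markers was 9448, 1853 and 906, and that over 11 markers of neutrophils and their precursors was 19198, 13207 and 1389. The sum over 10 osteoclast markers was 2071, 8895 and 33640. The sum over 10 stromal and osteoblast markers was 2873, 3146 and 9587. At 72 h 4 of 9 measured members were higher, beside 12.5% of all genes. The sum over 6 erythroid markers was 1753, 2318 and 5433, with 2, 3 and 2 of them above the floor. Of 3 erythroid markers measured at 72 h against 0 h, 1 was higher, and their median was 0.38. The higher sum at 72 h thus rests on few markers. The list includes the transferrin receptor gene Tfrc, and the share of each marker in the sum is not given here. T and NK cell markers were nearly all under the floor, 1 of 8 above it at 0 h and 0 later. The ratio of 3′ to 5′ control signal was 1.59, 1.38 and 1.20 for actin and 1.19, 0.975 and 0.749 for Gapdh in order of time. The part of these differences in the Malat1 and Neat1 values was not tested, and fewer cells of a type and less RNA per cell cannot be told apart.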

How the data were processed

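Total RNA of 3 cultures (5 µg each, per the labels) was read on 1 Affymetrix array each. The deposited values are linear intensity signals, with MAS5 named as software in the submitters' processing notes; its version and target are not given in the sources used here. Of 22626 gene probe sets, 20380 have 1 gene symbol in the 2016 platform annotation, 691 several and 1555 none, and only the first kind named a gene; 20351 of them matched a RefSeq gene of GRCm38.p6 by identifier. Log2 values were centred per array on the gene probe set median and floored at the 40th percentile. Where a gene had several such probe sets, the one brightest on average stood for it. A difference was called at 2-fold, a log2 difference of 1. Depth is not defined for arrays, and their number limits the precision.

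The members, lists and alternatives were chosen with earlier results of these data known, and 2 alternatives, the bacterial controls and plain _at probe sets, were added after seeing the data. Named genes were the members' probe sets, the 6 genes nearest in course to each, per list the 3 with the highest mean signal and up to 4 with the largest differences past 2-fold, neighbours past 2-fold and the immediate ones; Elac2 and Oip5os1 were named after their values were seen. Python 3.11.15, NumPy 2.4.6, pandas 2.3.3 and Matplotlib 3.10.9 were used, and the scripts were tested on simulated data.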

Additional observations from a re-analysis of the deposited data

How the results depend on the processing

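Log2 differences of Malat1 and Neat1 were recomputed under 12 alternatives. Malat1 stayed past 2-fold lower in 11 of 12 at both 24 and 72 h. Against -4.07 at 24 h it was -3.34 on the deposited scale, -3.61 with a floor at percentile 60, -2.17 when its probe sets were averaged, -2.80 without _s_at and _x_at probe sets, -2.51 with the bacterial controls and -0.86 with plain _at probe sets only, which leave 1452378_at. Against -3.90 at 72 h the same settings gave -3.13, no move past the technical error, -1.80, -2.89, -3.05 and -0.46, and with the bacterial controls the step from 24 to 72 h was -0.54. Neat1 at 24 h was past 2-fold lower in 10 of 12. It was -0.51 on the deposited scale and turned to 0.32 with the bacterial controls, and at 72 h these settings gave 0.43 and 0.50, with 0.18 for the last step under the bacterial controls. The number of companion genes past 2-fold was 25 at 24 h, 13 at 72 h and 22 in the last step. It became 63 and 35 on the deposited scale, and 103, 35 and 83 with the bacterial controls. Over all measured genes 1112 were higher and 778 lower at 24 h, against 3302 and 314 on the deposited scale, 850 and 962 after quantile normalization, 775 and 1062 with the trimmed mean and 6299 and 93 with the bacterial controls. No paired analysis was possible because each time has 1 array. For the same reason no replicate could be left out. With that higher floor Malat1 gave no value from 24 to 72 h, since both arrays lay at the floor. The dim later signals of Malat1 limit its folds, and no setting replaces the missing replicates.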
